A study of Bruguiera gymnorhiza with 19 samples.

Results

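The change in leaf transcript levels between 6 h and 24 h of salt treatment was measured in Burma mangrove (*Bruguiera gymnorhiza*) by comparing the 3 NaCl 24 h samples with the 3 NaCl 6 h samples, 6 of the 18 samples of the series. All groups were leaves of plants aged 3 years and 7 months, grown in vermiculite with 12 h of light and 12 h of darkness a day, whose culture water was exchanged for 500 mM NaCl (0 h, 6 h and 24 h) or 1 M sorbitol (0 h, 6 h and 24 h), with samples A, B and C in each group. The 0 h leaves were taken just before treatment, and leaves kept without treatment for 6 h or 24 h were not part of the comparison groups. Time in NaCl and time of day therefore cannot be told apart. The labels call A, B and C biological replicates without saying whether they are separate plants, and a p-value here measures only the spread among them. For NaCl 24 h C and NaCl 6 h C a further label gives another replicate letter or number than the title, which was followed here. The labels give 1 group for each. RNA came from leaf tissue in bulk, so that fewer cells of a type and less RNA per cell cannot be told apart.

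Salt reaches a plant first as an osmotic stress, because a salty root medium holds water back, and later as an ionic stress, as sodium and chloride build up in the leaves. Burma mangrove has no salt glands and keeps most salt out at the root, and the ions that do arrive are held in the vacuoles while compatible solutes balance them in the cytosol. Sorbitol, an uncharged sugar alcohol, gives the osmotic part without the salt ions, which is why the same interval in sorbitol is set beside the NaCl interval below.

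Each value is a normalized log2 intensity of 1 probe on a 1-colour array, so a difference of 1 is a 2-fold change. A probe was called at a limma adjusted p under 0.05 over the 8655 probes tested, and it was detected on an array where its intensity exceeded the 95th percentile of the negative control spots. On the arrays of the 6 samples the median probe intensity ran from 83.3 to 1729, and 6482 to 8180 of the 11997 mangrove probes were detected. NaCl 6 h C had the lowest signal, with 2206 probes at an intensity of 0 against at most 54 on the other arrays of the comparison. Pearson correlations across probes were 0.909 to 0.934 among the 6 h samples and at least 0.925 among the 24 h samples. Between both times they were 0.855 to 0.930, so the ranges overlap. The files name probes by clone or contig identifier and give their sequences but no gene descriptions, so no gene or function is named here, and the leaf label was not checked against marker genes.

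The sequences below are those of the probes on which the results turn, 5′ to 3′ as the array files give them, all from single clones (Bg) or assembled contigs (CL) of this species. The first set is a group of overlapping probes that rose together, and capitals mark the 30 bases that all 3 hold.
Bg01-08_I17_100_134: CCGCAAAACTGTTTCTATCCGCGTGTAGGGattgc
Bg02-09_D21_98_132: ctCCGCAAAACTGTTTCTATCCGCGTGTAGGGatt
CL776Contig1_95_129: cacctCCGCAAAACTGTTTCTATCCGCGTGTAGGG
The second set is a group of overlapping probes that were all lower at 24 h, with the 30 bases shared by all 3 in capitals.
Bg03-09_H03_58_92: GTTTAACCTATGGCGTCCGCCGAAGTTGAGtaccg
Bg04-03_N01_54_88: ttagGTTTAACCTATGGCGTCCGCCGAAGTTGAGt
CL120Contig1_54_88: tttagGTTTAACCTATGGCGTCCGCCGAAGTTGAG
The third set holds the other probes with the largest rises and falls.
Bg05-21_D01_228_265: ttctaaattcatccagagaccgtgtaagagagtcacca
Bg01-08_E03_225_259: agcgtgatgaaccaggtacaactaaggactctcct
Bg01-04_G19_137_171: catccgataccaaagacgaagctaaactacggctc
CL177Contig1_346_381: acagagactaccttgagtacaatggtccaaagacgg
Bg05-10_D05_200_234: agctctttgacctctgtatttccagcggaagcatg
Bg05-07_B05_380_414: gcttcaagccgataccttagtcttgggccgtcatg
Bg05-07_H14_769_803: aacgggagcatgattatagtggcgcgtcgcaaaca
The fourth set holds probes that at 24 h lay beyond their level in the untreated NaCl 0 h leaves, or whose change differed from that in sorbitol.
CL1201Contig1_501_535: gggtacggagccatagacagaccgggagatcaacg
CL558Contig1_862_896: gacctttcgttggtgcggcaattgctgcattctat
Bg05-15_J02_161_195: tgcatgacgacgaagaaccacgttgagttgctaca
Bg04-20_E09_129_163: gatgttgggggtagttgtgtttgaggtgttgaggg

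Between 6 h and 24 h in NaCl 219 of the 8655 probes changed (2.53%). Of these, 133 were higher at 24 h (1.54%) and 86 were lower (0.994%). The called rises had a median log2 fold change of 1.51 and the called falls one of -1.42, against -0.01 over all probes tested. At least 2-fold changes made up 121 of the rises and 83 of the falls, at least 4-fold changes 31 and 18, and at least 8-fold changes 8 and 6. Over all 8655 probes tested, called or not, 373 changed at least 2-fold, 50 at least 4-fold and 14 at least 8-fold. The rises had a median level of 8.95 at 6 h, against 9.31 over all probes tested, and of 10.82 at 24 h, and 18 of the 133 (13.5%) were detected on no 6 h array, against 5.12% of all probes. The falls had a median level of 11.20 at 6 h and of 9.61 at 24 h, and 14 of the 86 (16.3%) were detected on no 24 h array, against 11.5% of all probes. In 218 of the 219 called probes the 3 samples of one time all lay beyond the 3 of the other, a separation that 1685 of all probes showed (19.5%). The exception, CL606Contig1_201_235, named after its values were seen, stood at 12.18, 14.06 and 13.91 at 6 h and at 10.91, 10.13 and 12.53 at 24 h in samples A, B and C (log2 fold change -2.19, standard error 0.50, limma adjusted p = 0.0179). At the threshold, the last called probes were Bg04-11_B05_262_296 (log2 fold change 0.92, limma adjusted p = 0.0498) and Bg01-05_O01_613_647 (0.96). The first not called were Bg04-29_B14_80_116 (1.21, limma adjusted p = 0.0504) and Bg04-25_E14_72_106 (0.99).

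The count rested on some samples more than on others. It was 133 when NaCl 6 h B was left out and 117 when NaCl 24 h B was, and 115 with median scaling in place of quantile normalization. With the authors' deposited table it was 20 (75% higher) when all samples shared 1 estimate of the spread, although sorbitol 24 h B and C are on another scale there, and 236 when only the 6 samples compared were fitted, a setting added after seeing the data. The share of rises among the calls was 60.7%, and it was 71.9% of 178 without NaCl 6 h C, the array of lowest signal, and 51.1% of 133 without NaCl 6 h B.

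**Figure D1:**
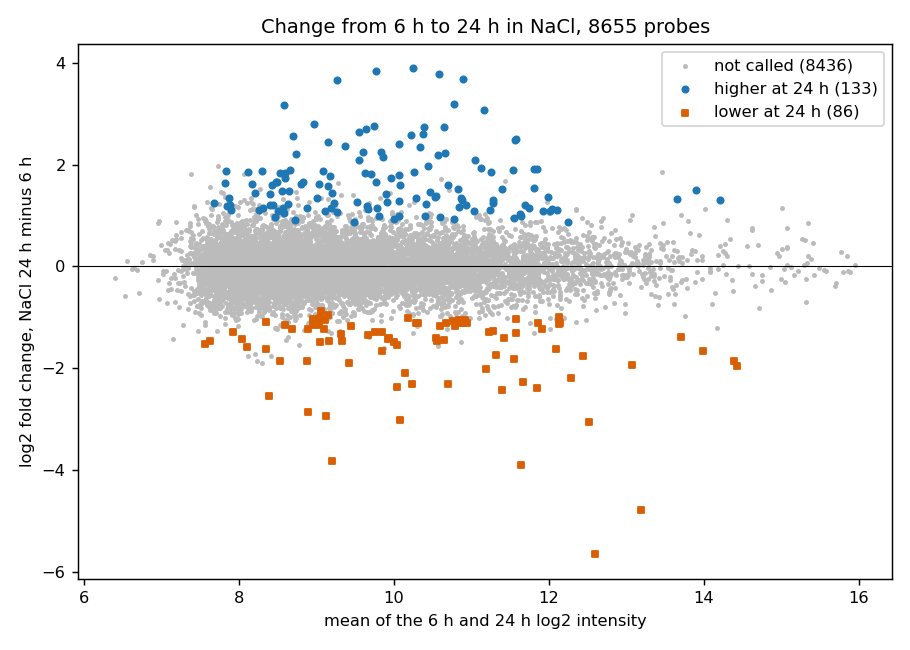
Log2 fold change from NaCl 6 h to NaCl 24 h (vertical axis) against the mean of both log2 intensities (horizontal axis) for the 8655 probes tested, 1 point per probe. The 133 called rises reach 3.89 and the 86 called falls reach -5.66, and both occur from dim to bright probes.

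The largest rises were in probes that had been dim at 6 h. Bg05-21_D01_228_265 stood at 7.88, 7.86 and 9.17 at 6 h (samples A, B and C) and at 11.84, 12.15 and 12.60 at 24 h (log2 fold change 3.89, standard error 0.59, limma adjusted p = 0.00033). Bg01-08_E03_225_259 stood at 7.97, 7.31 and 8.27 at 6 h and at 11.86, 12.03 and 11.15 at 24 h (log2 fold change 3.83, standard error 0.37, limma adjusted p = 1.11e-06). In both probes every 24 h sample lay more than 2 log2 units above every 6 h sample. Bg01-04_G19_137_171 was detected in no 6 h sample (7.32, 7.46 and 7.52) and in every 24 h sample (10.86, 10.97 and 11.44), which made it at least 8.41-fold higher at 24 h (limma adjusted p = 0.000212). Such a bound compares the bright group's mean with a floor for the dim group, which on each array is the probe's value or the dimmest detected probe's value, whichever is higher. Bg02-02_A21_405_439 was also detected in no 6 h sample (7.60, 7.41 and 7.71), and at 24 h it stood at 10.16, 10.41 and 10.54, at least 5.10-fold higher (limma adjusted p = 3.98e-07). Its samples differed little within each time, with an SD of 0.15 at 6 h and 0.19 at 24 h (n = 3).

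The 3 probes of the first sequence set rose side by side. Bg02-09_D21_98_132 stood at 9.09, 8.74 and 9.32 at 6 h and at 13.05, 12.71 and 12.46 at 24 h (log2 fold change 3.69, standard error 0.28, limma adjusted p = 4.17e-08). Bg01-08_I17_100_134 rose by 3.78 (standard error 0.31, limma adjusted p = 1.67e-07) and CL776Contig1_95_129, chosen for its shared sequence after its values were seen, by 3.08 (standard error 0.27, limma adjusted p = 3.98e-07). Since these probes share 30 bases, they read the same or near-identical transcripts and count as 1 observation of a gene, not 3.

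The next rises varied more in their spread between samples. CL991Contig1_77_111 stood at 10.41, 7.64 and 9.52 at 6 h, the widest spread of the named rises, and at 12.86, 12.83 and 11.43 at 24 h (log2 fold change 3.18, standard error 0.53, limma adjusted p = 0.000895). CL139Contig1_587_621 rose by 2.76 and CL808Contig1_505_539 by 2.70, from 8.36 ± 0.63 to 11.12 ± 0.20 and from 8.29 ± 0.18 to 10.99 ± 0.16 (SD, n = 3). Bg01-04_B14_18_52 rose from 9.02 ± 0.64 to 11.76 ± 0.19 (log2 fold change 2.74, standard error 0.57, limma adjusted p = 0.00806), and that call was lost without NaCl 6 h A, with normexp offset 0 and with the authors' deposited table.

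**Figure D2:**
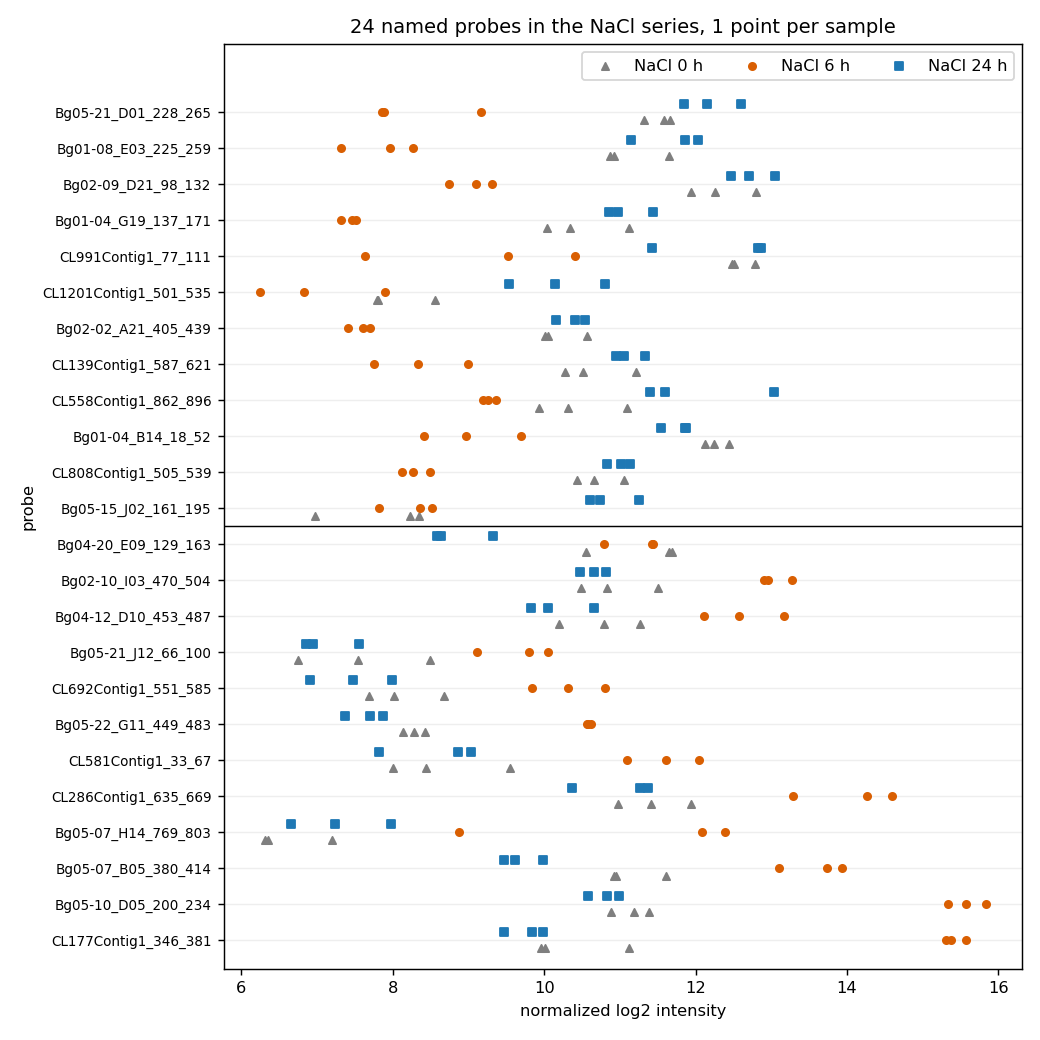
Normalized log2 intensity (horizontal axis) of the 24 probes that stand for the 12 largest rises (above the line) and the 12 largest falls (below it) between 6 h and 24 h, with 1 point per NaCl sample: triangles for 0 h, circles for 6 h and squares for 24 h. In all 24 the 6 h and 24 h samples do not overlap, as the rule for choosing them required, and in most the 0 h triangles lie near the 24 h squares.

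The largest falls were in probes that were among the brightest at 6 h. CL177Contig1_346_381 stood at 15.31, 15.57 and 15.38 at 6 h and at 9.98, 9.84 and 9.47 at 24 h (log2 fold change -5.66, standard error 0.35, limma adjusted p = 1.41e-09). Bg05-10_D05_200_234 stood at 15.57, 15.84 and 15.34 at 6 h and at 10.99, 10.82 and 10.57 at 24 h (log2 fold change -4.78, standard error 0.25, limma adjusted p = 9.16e-11). Each was at the scanner ceiling on 1 of the 3 arrays at 6 h, so the size of both falls is not exact. The same holds for the falls of CL47Contig1_797_831 (-1.96) and CL68Contig1_553_587 (-1.85), named here because they complete the 4 called probes with a saturated spot. Bg05-07_B05_380_414 stood at 13.94, 13.11 and 13.73 at 6 h and at 9.99, 9.47 and 9.61 at 24 h (log2 fold change -3.90, standard error 0.35, limma adjusted p = 3.98e-07).

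Some falls ended below detection. Bg05-07_H14_769_803 was detected in every 6 h sample, at 8.88, 12.08 and 12.39, and in none at 24 h (7.23, 7.98 and 6.66), at least 7.14-fold lower (limma adjusted p = 0.00234). Sample A was the low one at 6 h, by more than 3 log2 units. With foreground medians in place of means the log2 fold change was -0.96 and the call was lost, as it was with the authors' deposited table (-0.94), so the size of this fall does not hold there. Bg05-22_G11_449_483 was almost level within each time, at 10.56, 10.62 and 10.57 at 6 h and at 7.87, 7.71 and 7.36 at 24 h, where it was not detected, at least 4.95-fold lower (limma adjusted p = 9.37e-08). CL692Contig1_551_585 was at least 4.12-fold lower and Bg05-21_J12_66_100 at least 2.60-fold lower, both detected in every 6 h sample and in none at 24 h. The call of Bg05-21_J12_66_100 (limma adjusted p = 0.0218) was lost without NaCl 6 h A, 6 h B, 24 h A or 24 h C, with normexp offset 0, median scaling, a trended and robust eBayes and the authors' deposited table.

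Other falls ended at levels that were detected in most samples. CL286Contig1_635_669 stood at 14.59, 13.29 and 14.26 at 6 h and at 11.26, 11.37 and 10.37 at 24 h (log2 fold change -3.04, standard error 0.36, limma adjusted p = 1.73e-05). CL581Contig1_33_67 fell from 11.58 ± 0.48 to 8.57 ± 0.66 (SD, n = 3), a log2 change of -3.01, and was detected in 2 of the 3 samples at 24 h. Bg04-12_D10_453_487 and Bg02-10_I03_470_504 fell by 2.43 and 2.39, both from probes that were bright at 6 h (12.61 ± 0.53 and 13.04 ± 0.20). In all 4, every 24 h sample lay below every 6 h sample.

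The untreated NaCl 0 h leaves, which do not enter the comparison of 24 h with 6 h, place these changes. Of the 133 rises, 87 had a 0 h mean above the midpoint of the 6 h and 24 h means (65.4%), and of the 86 falls 80 had one below it. Over all probes tested, 47.6% of the 0 h means lay above the midpoint. With the sorbitol 0 h leaves in place of the NaCl 0 h leaves, the counts were 90 of 133 and 70 of 86. For most called probes, then, the level at 24 h was nearer to the untreated level than the level at 6 h was. The 0 h mean lay between the other means in 104 of the rises and 54 of the falls, above both in 17 and 3, and below both in 12 and 29. Over all 8655 probes tested it lay between them in 2044, above both in 3153 and below both in 3458. Called probes were picked for a wide gap between 6 h and 24 h, which leaves more room for a 0 h mean inside it. These counts are therefore a description.

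Among the 12 largest rises, the 95% interval of 6 h minus 0 h lay below 0 in 11, and that of 24 h minus 0 h held 0 in 9. Among the 12 largest falls, the interval of 6 h minus 0 h lay above 0 in 11, and that of 24 h minus 0 h held 0 in 9. These probes were picked for their difference between 6 h and 24 h, so all 4 counts are a description. The 4 falls that ended below detection have no exact level at 24 h, and their intervals compare values at background. Among the rises, Bg01-04_G19_137_171 and Bg02-02_A21_405_439 were detected in no 6 h sample, so their 6 h minus 0 h has no exact size. CL1201Contig1_501_535 was detected in 1 sample at 0 h and 1 at 6 h, so its interval of 6 h minus 0 h compares values near background. Bg02-09_D21_98_132 is an example of the rises whose interval held 0: it stood at 12.26, 11.94 and 12.79 at 0 h, and its level at 24 h minus that at 0 h was 0.41 (95% interval -0.17 to 0.98). CL177Contig1_346_381, the largest fall, is an example among the falls: it stood at 11.12, 9.96 and 10.01 at 0 h, with 24 h minus 0 h at -0.60 (95% interval -1.32 to 0.12).

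A few named probes ended at 24 h beyond their level in the untreated NaCl 0 h leaves. Bg05-15_J02_161_195 was detected in no 0 h sample (8.22, 8.34 and 6.97) and stayed dim at 6 h (8.36, 7.81 and 8.51) before it reached 10.74, 11.25 and 10.61 at 24 h. Its rise from 6 h was 2.64 on the log2 scale (standard error 0.38, limma adjusted p = 0.000196), while 6 h minus 0 h was 0.38 (95% interval -0.42 to 1.18). The probe was detected in 2 of the 3 samples at 6 h and in all 3 at 24 h. In sorbitol it stood at 7.44 ± 0.86 at 0 h, 10.15 ± 0.21 at 6 h and 11.13 ± 0.26 at 24 h (SD, n = 3). There it was detected in all 3 samples at 6 h and at 24 h. The NaCl and sorbitol changes from 6 h to 24 h were not called different (limma adjusted p = 0.157). CL1201Contig1_501_535, detected in 1 of the 3 samples at 0 h and at 6 h, stood at 8.56, 7.81 and 7.79 at 0 h, at 7.90, 6.25 and 6.82 at 6 h and at 9.54, 10.14 and 10.80 at 24 h, with 24 h minus 0 h at 2.11 (95% interval 1.29 to 2.92). CL558Contig1_862_896 stood at 9.36, 9.19 and 9.25 at 6 h and at 11.39, 11.60 and 13.04 at 24 h (log2 fold change 2.74, standard error 0.38, limma adjusted p = 0.000103), with 24 h minus 0 h at 1.57 (95% interval 0.78 to 2.35). Sample C was the high one at 24 h. In the untreated sorbitol 0 h leaves CL558Contig1_862_896 stood at 12.10, 12.34 and 11.55. Their mean, 11.99, was level with its NaCl 24 h mean of 12.01, so the excess holds only against the NaCl 0 h leaves.

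On the falling side, Bg04-20_E09_129_163 stood at 10.55, 11.69 and 11.65 at 0 h and at 11.43, 11.42 and 10.79 at 6 h, so that 6 h minus 0 h was -0.08 (95% interval -0.84 to 0.68). At 24 h it stood at 8.63, 9.33 and 8.59, a log2 fold change from 6 h of -2.37 (standard error 0.36, limma adjusted p = 0.00036). This probe was detected in every sample. Bg05-07_B05_380_414 fell past its untreated level, with 24 h minus 0 h at -1.47 (95% interval -2.19 to -0.75). Bg05-22_G11_449_483 was detected in 1 of the 3 untreated samples and on no array at 24 h, so its levels at both times have no order.

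**Figure D3:**
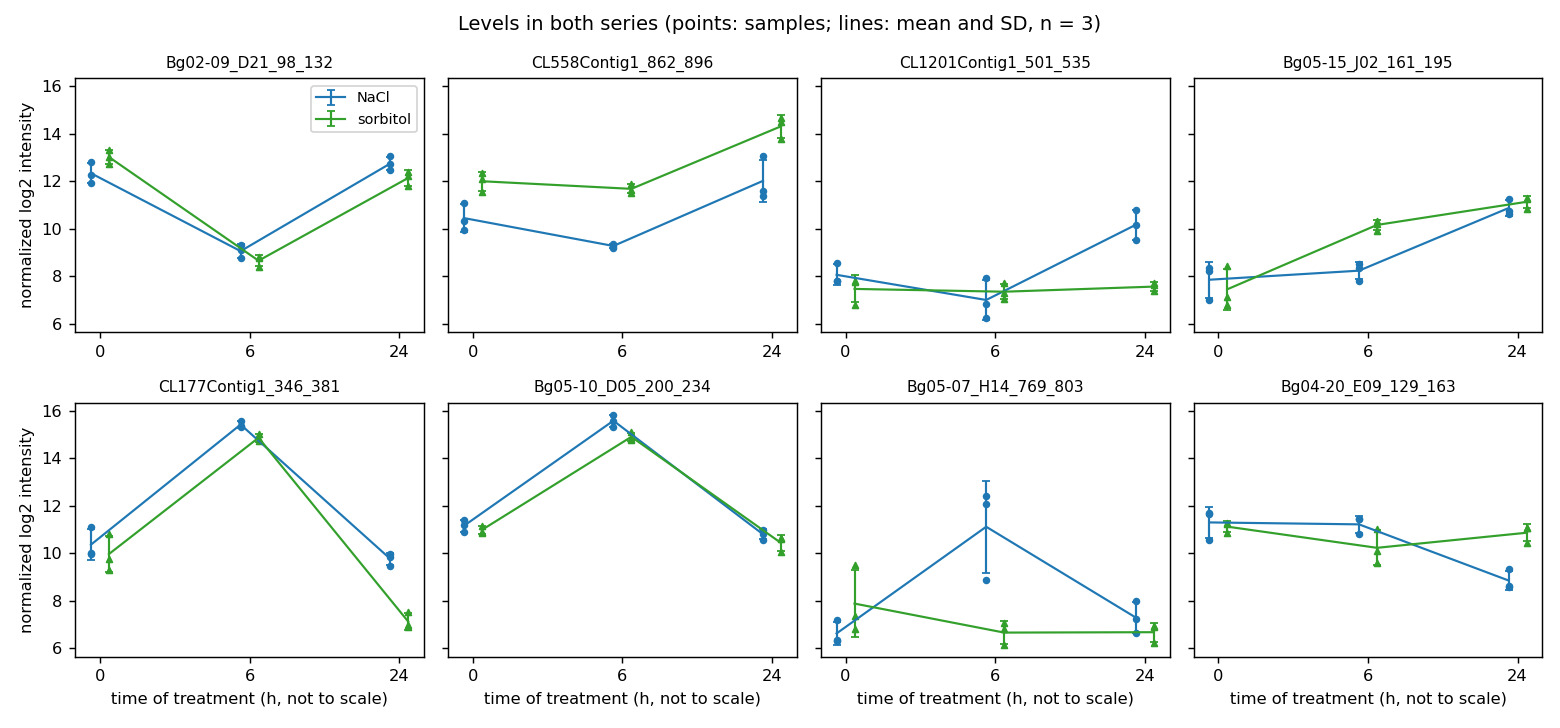
Normalized log2 intensity (vertical axis) at 0 h, 6 h and 24 h (horizontal axis, not to scale) of 8 named probes in the NaCl series (blue, circles) and the sorbitol series (green, triangles). Points are samples, and lines join the means with SD bars (n = 3). Bg02-09_D21_98_132 dips and CL177Contig1_346_381 and Bg05-10_D05_200_234 peak at 6 h in both series, whereas CL1201Contig1_501_535 rises at 24 h in NaCl, where its change exceeded that in sorbitol by 2.95.

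The sorbitol samples show what the same interval looked like without salt ions, in leaves that share no sample with the NaCl comparison. Both comparisons took each probe's spread from the same model, so their calls are not independent. From 6 h to 24 h in sorbitol, 276 probes rose (3.19%) and 191 fell (2.21%). Of the 133 NaCl rises 68 also rose in sorbitol, which is 51.1% of the NaCl list and 24.6% of the sorbitol list. Of the 86 NaCl falls 38 also fell in sorbitol, 44.2% of the NaCl list and 19.9% of the sorbitol list. No probe was called in opposite directions. Whether called or not, 120 of the 133 rises and 69 of the 86 falls had the same sign in sorbitol, with median sorbitol changes of 1.06 and -0.85 against 0.01 over all probes. Of all 8655 probes tested, 4422 had a sorbitol change above 0 and 4233 one below 0. The arrays of lowest signal touch both series: 3 of the 4 are sorbitol arrays, and without all 4 the sorbitol count was 255 in place of 467, the NaCl count 209 in place of 219 and the shared count 81 in place of 106.

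Of the 12 largest NaCl rises 7 were also called higher in sorbitol, and of the 12 largest falls 8 were also called lower. Among those rises, Bg05-21_D01_228_265 stood at 11.14, 11.21 and 7.79 in sorbitol 24 h A, B and C (limma adjusted p = 0.0425). Bg01-04_G19_137_171 stood at 10.11, 10.02 and 6.88 there (limma adjusted p = 0.0213). Both were detected in 2 of these 3 samples, and the low one was sample C, an array of low signal. Bg02-09_D21_98_132 rose by 3.49 in sorbitol against 3.69 in NaCl (limma adjusted p in sorbitol = 8.88e-08), and the NaCl change minus the sorbitol change was 0.20 (95% interval -0.61 to 1.02). Bg01-08_E03_225_259 rose by 3.26 in sorbitol (limma adjusted p = 8.66e-06), where it was detected in 1 of the 3 samples at 6 h, with a difference of 0.57 (95% interval -0.51 to 1.65). Bg05-10_D05_200_234 fell by 4.47 in sorbitol (limma adjusted p = 1.14e-10), with a fitted difference of -0.31 (95% interval -1.04 to 0.41) that the saturated spot in NaCl makes inexact. CL177Contig1_346_381 was detected in no sorbitol 24 h sample (7.12 ± 0.35, SD, n = 3), where it was at least 102-fold lower than at 6 h. Because its NaCl level at 6 h is saturated on 1 array, no order of both falls is given, and the test of the difference missed the threshold (limma adjusted p = 0.0519). CL558Contig1_862_896 rose by nearly the same amount in both series (2.63 in sorbitol) from different levels, 11.67 ± 0.19 at 6 h in sorbitol against 9.27 ± 0.08 in NaCl. Its untreated levels differed as well, at 11.99 ± 0.41 in the sorbitol 0 h leaves against 10.44 ± 0.59 in the NaCl 0 h leaves.

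The change itself differed between NaCl and sorbitol in 56 probes (0.647%), with the NaCl change higher in 15 and lower in 41. Among these, 10 were called in NaCl and not in sorbitol, 42 in sorbitol and not in NaCl, 4 in neither and 0 in both. The count moved with the settings: limma called 14 probes without the 4 arrays of lowest signal, 9 with a normexp offset of 0 and 152 without sorbitol 6 h A. Where a probe was not detected in one series, the size of its difference is not exact. CL1201Contig1_501_535 had the highest difference: it was detected in no sorbitol sample (7.34 ± 0.33 at 6 h and 7.56 ± 0.18 at 24 h), and the NaCl change exceeded the sorbitol change by 2.95 (95% interval 1.80 to 4.10, limma adjusted p = 0.0139). That call was lost without the arrays of lowest signal, without NaCl 6 h B, with normexp offset 0 and with the authors' deposited table. Bg04-20_E09_129_163 stood at 10.23 ± 0.74 at 6 h and 10.86 ± 0.36 at 24 h in sorbitol, while it fell in NaCl, a difference of -3.00 (95% interval -4.07 to -1.93, limma adjusted p = 0.0101). Of the settings tried, its call was lost only with the authors' deposited table.

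Other differences came from the sorbitol side. Bg04-21_I17_25_59 stood at 9.86, 9.71 and 9.23 at 6 h and at 8.93, 8.76 and 8.59 at 24 h in NaCl, a change of -0.84 that was not called (limma adjusted p = 0.171). In sorbitol it went from 9.07 ± 0.17 to 14.46 ± 0.55, and the difference was -6.23 (95% interval -7.10 to -5.37, limma adjusted p = 1.42e-08). Bg04-30_K13_568_603 was detected in no NaCl sample and reached 12.86 ± 0.99 in sorbitol at 24 h, a difference of -4.36 (limma adjusted p = 0.0016). CL15Contig1_574_608 was level in NaCl within its spread, at 9.83 ± 0.77 and 9.66 ± 0.39, and differed by -4.16 (limma adjusted p = 0.0101). These probes were not changed in NaCl by the test used, and they are given because the rule names the lowest differences. For Bg05-07_H14_769_803, which peaked at 6 h in NaCl and was detected in no sorbitol sample at 6 h or 24 h, the difference was -3.84 (95% interval -5.90 to -1.79) but missed the threshold (limma adjusted p = 0.0717).

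**Figure D4:**
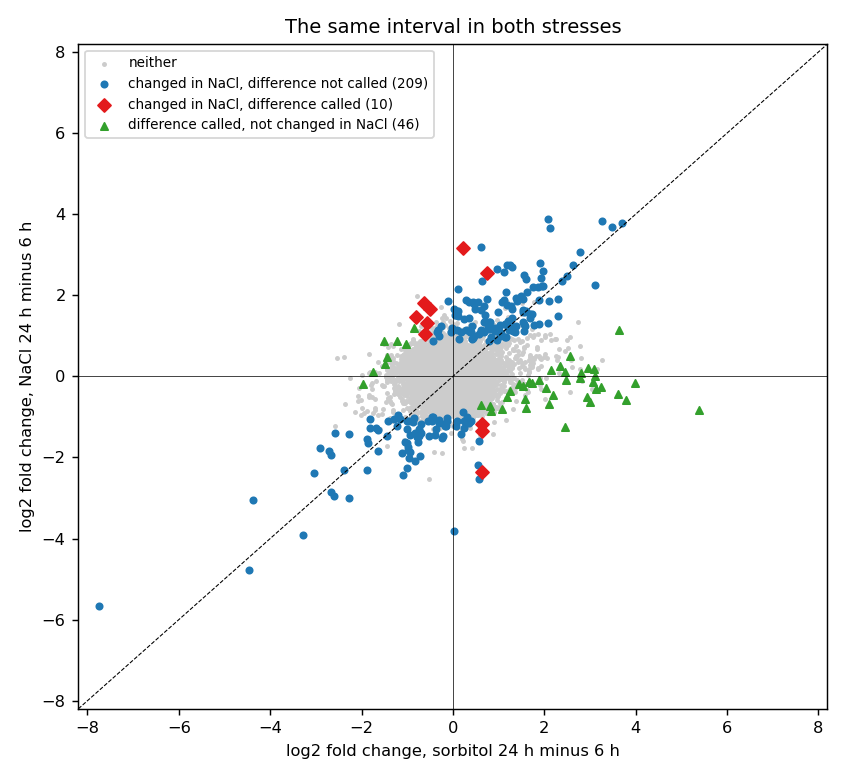
Log2 fold change from 6 h to 24 h in NaCl (vertical axis) against that in sorbitol (horizontal axis), 1 point per probe tested. The dashed line marks equal changes; the 10 red diamonds are NaCl calls whose change differed from sorbitol, and the 46 green triangles are differences without a call in NaCl, most of them far to the right near 0 in NaCl.

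Probes that share sequence were compared within the arrays. Among the tested probes, 208 groups of at least 2 shared 20 or more consecutive bases (437 probes). Of these groups 10 held a called probe and 6 held at least 2, none held calls in both directions, and in all 10 the fold changes of all members, called or not, had the same sign. In 5 of the 10 every member was called. The 10 groups were picked for a call, and their members share sequence and samples. Their shared signs are therefore a description and no independent check of the changes. Bg05-08_N04_176_213 and CL1167Contig1_222_256, which share 31 bases, rose by 2.23 and 1.85. Bg04-03_N01_54_88 fell by 2.02 and CL120Contig1_54_88 fell by 1.74, while Bg03-09_H03_58_92, the other probe of the second sequence set, changed by -1.23 and was not called (limma adjusted p = 0.0626). The identical probes Bg04-10_M19_482_516 and Bg04-19_M10_482_516 changed by 1.67 and 1.15 with limma adjusted p of 0.00316 and 0.0893, so that the same sequence fell on both sides of the threshold. Probes named in this paragraph were picked for their shared sequence after their values were seen.

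Grouped by identifier, the probes differed in how often they were called. Of the 724 tested probes whose name starts with Bg01, 32 rose (4.42%) and 4 fell (0.552%), whereas 1.27% of all other probes rose. The other single-clone groups had 0.944% to 1.42% rises and 0.501% to 1.57% falls. Bg03 was the one with more falls than rises, 15 against 9. The Bg01 rises numbered 20 when NaCl 6 h B was left out and 21 when NaCl 24 h B was. In sorbitol 39 Bg01 probes rose (5.39%) and 10 fell (1.38%), against 3.19% and 2.21% of all probes, and the contigs had the highest share of rises there (6.30%). The share of rises in Bg01 exceeded that of the other probes in all alternative settings run, from 0.691% against 0.126% with the authors' deposited table (5 and 10 probes) to 5.13% against 1.75% over probes detected in all 18 samples. Bg01 stands out because its share was the highest in these same data, and the settings reuse the same arrays. Their shared direction is therefore a description and no independent check. The sources used here do not say whether the identifier groups stand for libraries, plates or sequencing rounds.

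Probes from contigs were called more often than probes from single clones, 51 of 1031 (4.95%) against 168 of 7624 (2.20%). Without NaCl 24 h B the contig count was 28 (2.72% against 1.17% of single clones), and without NaCl 6 h B it was 33 (3.20% against 1.31%). Contig probes were also brighter, with a median level at 6 h of 10.35 against 9.19. Among probes detected in all 6 samples, the shares were 4.68% and 2.11%. Rises and falls were nearly equal among the contigs, 27 and 24, against 106 and 62 among single clones. The median GC content of the probes was 48.6% for the rises, the falls and all probes tested.

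**Figure D5:**
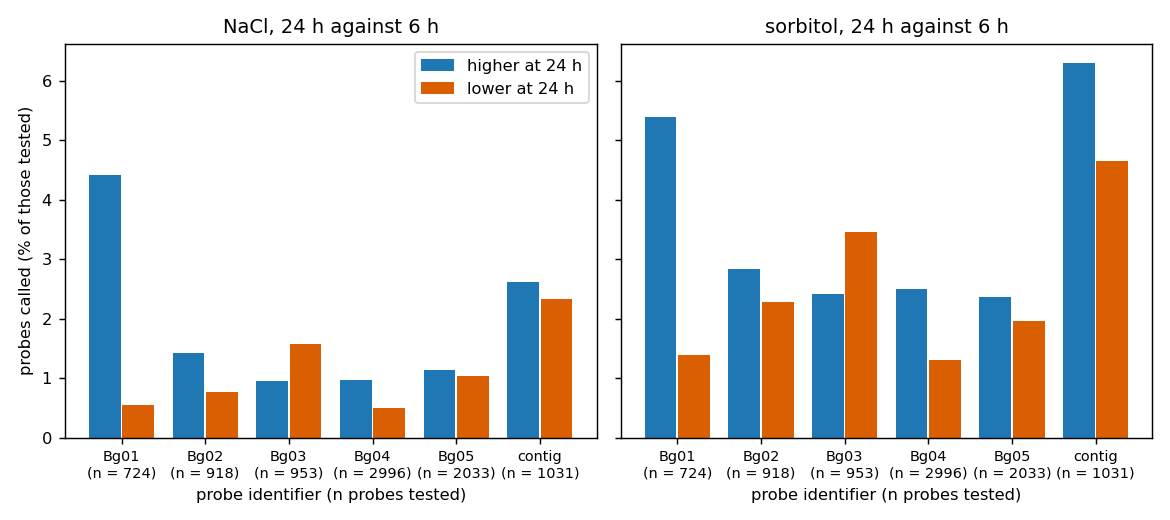
Percent of tested probes called higher (blue) or lower (orange) at 24 h than at 6 h (vertical axis) by the start of the probe identifier (horizontal axis, with the number tested), in NaCl on the left and sorbitol on the right. In NaCl the Bg01 rises stand at 4.42%, above every other bar.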

How the data were processed

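Leaf total RNA was amplified to Cy5-labelled cRNA and measured on 19 arrays with 1 colour each (per the labels' protocols), which are 6 groups with 3 samples and a second array of NaCl 0 h C. The deposited scanner files hold foreground intensity per spot, per the file headers. The authors' deposited table holds intensity values too, with 16 columns that share 1 set of values (median 521) and 3 columns that equal the scanned foreground medians in 100%, 100% and 99.99% of spots (sorbitol 24 h B, sorbitol 24 h C and the second array of NaCl 0 h C, with medians of 782, 83 and 330.5), and served as an alternative, as log2(value + 1).

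Foreground means were background-corrected (normexp, offset 50), log2 transformed and quantile-normalized over mangrove probes of all arrays. On arrays with more than 1000 probes at 0, where normexp could not be fitted, 50 was added instead; applying that rule to foreground medians as well was decided after a failed run. Probes detected in at least 3 samples were kept (8655). NaCl 0 h C, averaged over its arrays, counted as detected if either array was, a rule set after the counts under both readings were seen. All 18 samples entered 1 limma model of 6 group means (12 residual degrees of freedom) with Benjamini-Hochberg adjustment. Array number limits the precision.

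The samples, probe groups and rules were chosen with earlier results of these data known. Named are the 12 highest and 12 lowest fold changes among called, non-overlapping probes detected in every sample of a time, 1 per group sharing 20 bases. Also named are the 3 highest and 3 lowest called differences between NaCl and sorbitol, and the 3 highest and 3 lowest fold changes called in both. Others are marked as chosen later. Gene lists and leaf markers need gene descriptions and were not analysed here. The model was tested on simulated data. Tools were R 4.3.3, limma 3.58.1, jsonlite 2.0.0, Python 3.11.15 and matplotlib 3.10.9.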

Additional observations from a re-analysis of the deposited data

Results flagged for a closer look

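The test of the difference between the NaCl and the sorbitol change from 6 h to 24 h called 56 probes, and the named or NaCl-called ones among them are given here because both series moved differently. The NaCl change was higher than the sorbitol change by 2.95 in CL1201Contig1_501_535, 2.44 in Bg03-10_E23_433_467, 2.36 in Bg04-04_A24_337_371, 2.27 in Bg01-01_B02_105_140, 2.16 in Bg01-06_F05_321_355, 1.90 in Bg01-07_B02_289_323, 1.80 in Bg01-01_G18_193_227 and 1.68 in Bg04-15_M07_257_291 (log2 units). It was lower, with a difference of -6.23 in Bg04-21_I17_25_59, -4.36 in Bg04-30_K13_568_603, -4.16 in CL15Contig1_574_608, -3.00 in Bg04-20_E09_129_163, -2.00 in Bg05-25_I07_289_323 and -1.82 in Bg04-23_F21_237_276.

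Bg01-01_G18_193_227 was detected in no NaCl 6 h sample (7.42 ± 0.42, SD, n = 3) and stood at 9.98 ± 0.04 at 24 h, against 8.01 ± 0.23 and 8.77 ± 0.42 in sorbitol. Bg01-06_F05_321_355 was detected in all 3 NaCl 24 h samples (9.30 ± 0.35) and in no sorbitol sample at any time. Bg01-07_B02_289_323, a bright probe, rose from 12.99 ± 0.14 to 14.32 ± 0.29 in NaCl and stood at 12.88 ± 0.28 and 12.31 ± 0.49 in sorbitol. Bg04-04_A24_337_371 was not called in NaCl (log2 fold change 0.86, limma adjusted p = 0.312). In sorbitol 24 h C, an array of low signal, it and Bg03-10_E23_433_467 both stood at 6.88 and were not detected. Sorbitol 24 h A and B stood at 8.56 and 8.33 for Bg04-04_A24_337_371 and at 8.36 and 8.62 for Bg03-10_E23_433_467. Several of these calls rest on few settings: of the settings tried, the difference stayed called in 10 of 29 for Bg04-15_M07_257_291, 12 of 29 for Bg03-10_E23_433_467, 13 of 29 for Bg04-04_A24_337_371 and 12 of 30 for Bg01-07_B02_289_323, against 29 of 30 for Bg04-20_E09_129_163 and 28 of 29 for Bg04-21_I17_25_59. For Bg05-25_I07_289_323 it stayed called in 13 of 30, for Bg01-01_B02_105_140 in 15 of 30 and for Bg01-06_F05_321_355 in 17 of 29. The counts were 21 of 29 for Bg01-01_G18_193_227 and 21 of 30 for Bg04-23_F21_237_276.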

How the results depend on the processing

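There were 32 alternatives, 29 of them planned and the others chosen after seeing the data. The 26 named probes called in NaCl kept their direction in every alternative that tested them, and 8 kept their call in every such alternative: Bg01-08_E03_225_259, Bg02-09_D21_98_132, Bg01-08_I17_100_134, Bg02-02_A21_405_439, CL558Contig1_862_896, Bg05-10_D05_200_234, Bg05-07_B05_380_414 and CL286Contig1_635_669. Of the 26, 8 were tested in all alternatives, 5 of them among those listed. The others were not tested where detection in all 18 samples was required. The 26 were picked by their values in these same data. Leaving out a 0 h or sorbitol sample, or changing the filter, the eBayes or the block setting, leaves their fold change as it was. Their kept direction is therefore a description and no independent check. Most lost calls were with the authors' deposited table, in which sorbitol 24 h B and C are on another scale than the other samples, so its counts over all samples are no measure of stability. The NaCl count of 219 became 115 with median scaling and 20 with the authors' table, and ran from 117 (NaCl 24 h B left out, or 133 for NaCl 6 h B) to 255 with 1 sample left out. The sorbitol count of 467 became 283 and 53 likewise and 255 when the arrays of lowest signal were dropped, and ran from 279 (sorbitol 24 h C left out, or 289 for sorbitol 6 h B) to 558. The shared count of 106 became 52 and 14, and ran from 69 (NaCl 24 h B left out, or 70 for NaCl 24 h C) to 113. The difference count of 56 became 9 with normexp offset 0, 19 with median scaling, 0 with the authors' table (248 at an unadjusted p under 0.05), 31 unfiltered for dim probes and 14 when the arrays of lowest signal were dropped. Leaving out 1 sample gave 17 (NaCl 24 h B) to 152 (sorbitol 6 h A). Among the other samples whose absence moved it by over 1.5 times, NaCl 6 h B gave 22 and 6 h C 32. In sorbitol, the 0 h samples A and B gave 33 and 36, the 6 h samples B and C gave 22 and 25, and the 24 h samples B and C gave 31 and 27. Correlations of deviations between NaCl 6 h and 24 h were 0.36, -0.30 and 0.21 for A, B and C. These are too few to say whether the letters pair the samples. The arrays of lowest signal all carry the letter C (NaCl 6 h and sorbitol 0 h, 6 h and 24 h). With the replicate letter as a block, the counts were 309 (NaCl), 582 (sorbitol), 123 (difference) and 133 (shared). The causes were not tested. Of the added settings, foreground medians quantile-normalized on a linear scale and detection of NaCl 0 h C on both arrays, gave 251 and 221 NaCl calls, and the authors' table with only the 6 samples compared gave 236. Signal over background limits the dim probes: where a group was not detected, the fold is a bound.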
